A study of Homo sapiens with 2 samples.

Results

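The genes described here are 10 targets and restraints of the ERK branch of MAP kinase signalling: the phosphatase genes DUSP4, DUSP5 and DUSP6, the Sprouty genes SPRY2 and SPRY4, the Sprouty-related genes SPRED1 and SPRED2, the ETS transcription factor genes ETV4 and ETV5, and PHLDA1. They were taken by symbol from a deposited table of 19029 genes, and all 10 had a row. The libraries came from BT549, an established breast cancer cell line, either overexpressing SNHG15, a long non-coding RNA that hosts a small nucleolar RNA, or carrying a control vector named pcIP2 in the labels. Each group held 1 library of total RNA from the same line and medium, and the sources used here do not say whether a library came from a clone or a pool of cells. With 1 library per group none of the differences could be checked against replicates, p-values were not computed, and the 95% intervals cover counting error only.

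Growth factor receptors pass their signal through RAS, the RAF kinases and MEK to the ERK kinases. Active ERK switches on genes whose products then damp the same route, so that the messages of these genes are widely read as a gauge of the pathway's output. The DUSP products remove phosphate from ERK, Sprouty and SPRED proteins act upstream at the level of RAS and RAF, and ETV4 and ETV5 carry the transcriptional response.

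The SNHG15-overexpressing library held 16570496 counts and the vector-control library 20799017. SNHG15 itself was at 1997 CPM, the library-scaled count used for all levels below unless stated, in the SNHG15-overexpressing library and 23.3 CPM in the vector-control library. Markers of the line's mesenchymal state did not move as one. VIM stood at 1998 CPM in the SNHG15-overexpressing library and 1993 CPM in the vector-control library, while the cadherin CDH2 was 5.28-fold higher (4.12 to 6.82), FN1 had a ratio of 0.555 (0.542 to 0.568) and ZEB1 a ratio of 0.590 (0.418 to 0.823). The luminal keratin KRT18 had a ratio of 0.585 (0.573 to 0.598) and GATA3 a ratio of 1.11 (1.02 to 1.21). FOXA1, with 6 counts in the SNHG15-overexpressing library against 1 in the vector-control library, and the epithelial cadherin CDH1, with 12 against 11, were near 0. Of 4 haematopoietic and endothelial markers, PTPRC and PECAM1 are not analysed here. CD68 had 68 counts in the SNHG15-overexpressing library against 387 in the vector-control library, and TEK had 3 against 74. Their part in the results below was not tested.

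Stretches of DNA upstream of 6 of the 10 genes are shown because ETV4 and ETV5 belong to the ETS family, whose proteins bind around the core GGAA. In the 250 bases upstream of the outermost RefSeq start of each gene (GRCh38.p14), the core was searched as GGAA and, for the other strand, TTCC. The 30-base window with the most cores is printed 5′ to 3′ on the gene's own strand, with the cores in capitals. Where windows tied, the one printed comes from the most upstream run of ties.
DUSP6: tccggagcGGAAaTTCCtTTCCgtttttgt
PHLDA1: cgccTTCCaggGGAAcgagcgcGGAAgcaa
SPRED1: cTTCCtcctcgccgcatccctgagGGAAgc
SPRED2: tGGAAgccaggagggagggggagaGGAAgc
SPRY2: aacaactgctctgTTCCgcctcggatccac
SPRY4: ctGGAAcgggcgtctctgggcttggtcagg
The DUSP6 window lies at chr12:89352634-89352663 and the PHLDA1 window at chr12:76031815-76031844, both on the minus strand. The SPRED1 window lies at chr15:38252753-38252782 on the plus strand. The SPRED2 window is chr2:65432678-65432707, the SPRY2 window chr13:80341318-80341347 and the SPRY4 window chr5:142324465-142324494, all on the minus strand. Windows of at least 3 cores were found for DUSP6 and PHLDA1, and for 7.53% of the 35116 promoters of the table. Windows of at least 2 cores, which SPRED1 and SPRED2 also had, occurred in 44.8% of promoters. SPRY2 and SPRY4 had no window with more than 1 core, and 92.7% of promoters had a window of at least 1. The longer string CCGGAA, on either strand, occurred in the 250 bases of PHLDA1 and SPRY2, outside the printed windows, and in 14.5% of all promoters. The gene models of the deposited table begin further upstream than the RefSeq starts for DUSP6, PHLDA1, SPRED1 and SPRY4, so these windows lie inside the models. A match is a string of letters and no evidence of binding. The sequences come from RefSeq. ETV4, ETV5 and DUSP5 had no entry among the promoters, and DUSP4 was left out of the search.

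Of the 10 genes, 2 were counted as lower with SNHG15 overexpression, PHLDA1 and ETV4, and 0 as higher. A gene was so counted where its ratio reached 1.5-fold and its interval excluded 1. By the same rule 12.2% of the 12934 genes that averaged 1 CPM or more were lower and 13.3% were higher, 25.5% in all. Of these genes 1725 were thus higher and 1574 lower, whereas scaling by library totals gave 2380 higher and 1151 lower. Among the 9661 genes that averaged 5 CPM or more, a level that all 10 reached, the shares were 11.4% lower and 10.6% higher. Set against these shares, 2 lower genes in 10 do not mark out the group. In bulk RNA, fewer cells with a message and less of it per cell cannot be told apart. With the stricter demand that the whole interval lie beyond 2-fold, 0 of the 10 were called, beside 4.65% of all genes compared (2.20% higher and 2.45% lower). The median log2 ratio was −0.20 over the 10 genes and 0.02 over all genes compared.

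**Figure D1:**
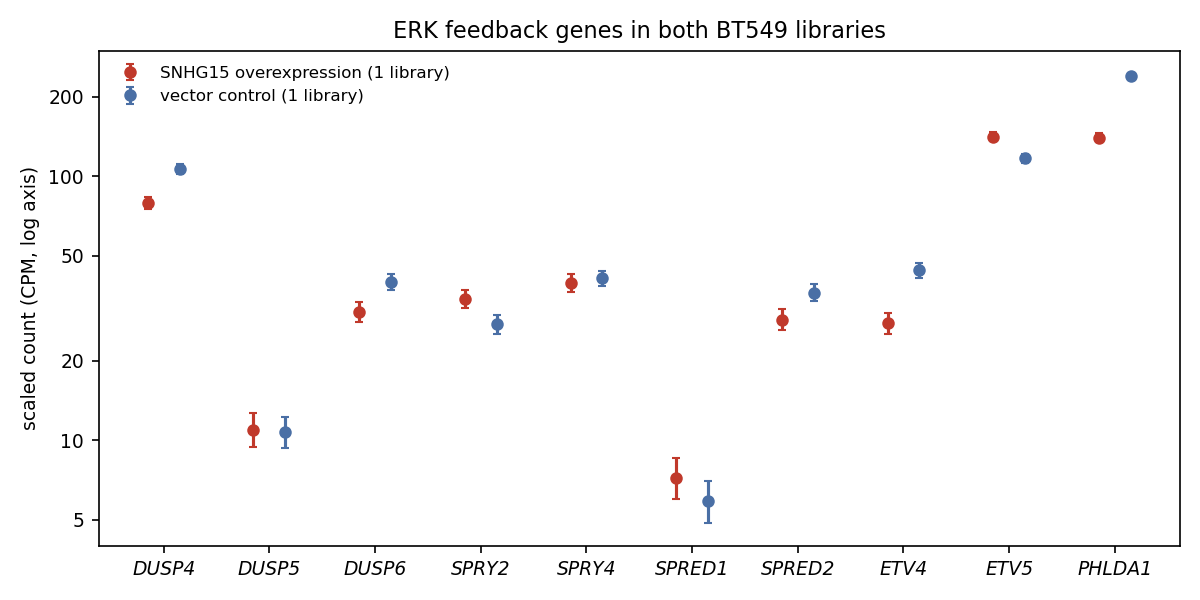
Scaled counts (CPM, log axis) of the 10 genes in the SNHG15 overexpression library (red, left) and the vector control library (blue, right), with exact 95% Poisson intervals of the counts. PHLDA1, at 140.1 CPM against 239 CPM, shows the widest gap, while DUSP5 and SPRY4 nearly coincide.

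The DUSP genes encode dual-specificity phosphatases that take phosphate off the threonine and the tyrosine of MAP kinases. DUSP6 (ENSG00000139318, chromosome 12, 89347232 to 89353271, minus strand, hg38), whose product acts on ERK in the cytoplasm, had 529 counts in the SNHG15-overexpressing library and 794 in the vector-control library. These counts correspond to 30.7 CPM against 39.8 CPM, a ratio of 0.771 (0.690 to 0.862). DUSP4 (ENSG00000120875, chromosome 8, 29333064 to 29350668, minus strand) encodes a nuclear phosphatase and had 1368 counts in the SNHG15-overexpressing library against 2124 in the vector-control library. At 79.3 CPM against 106.3 CPM its ratio was 0.746 (0.696 to 0.798). Both lay below the vector-control library by more than counting error, and neither reached 1.5-fold. DUSP5 (ENSG00000138166, chromosome 10, 110497838 to 110511544, plus strand), the other nuclear enzyme with ERK as its substrate, had 189 counts against 214. Its level was 11.0 CPM in the SNHG15-overexpressing library and 10.7 CPM in the vector-control library, and the interval of the ratio, 0.836 to 1.25, included 1. Summed over the 3 genes, the level was 120.9 CPM with SNHG15 overexpression and 156.8 CPM with the vector, a ratio of 0.771 (0.729 to 0.815).

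Sprouty proteins are induced by growth factors and hold back receptor signalling to ERK. SPRY2 (ENSG00000136158, chromosome 13, 80335976 to 80340951, minus strand) had 591 counts in the SNHG15-overexpressing library and 548 in the vector-control library. That was 34.3 CPM against 27.4 CPM, a ratio of 1.25 (1.11 to 1.40), and the highest ratio among the 10 genes. SPRY4 (ENSG00000187678, chromosome 5, 142310427 to 142326455, minus strand) had 679 counts against 819, at 39.4 CPM in the SNHG15-overexpressing library and 41.0 CPM in the vector-control library. Its interval, 0.866 to 1.06, included 1. SPRY4 overlaps SPRY4-IT1 on its own strand, with 6 counts against 5, and SPRY4-AS1 on the other strand, with 6 against 11, so the overlapping genes held few counts.

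The SPRED proteins bring neurofibromin, which shuts RAS off, to the membrane. SPRED2 (ENSG00000198369, chromosome 2, 65310851 to 65432637, minus strand) had 494 counts in the SNHG15-overexpressing library and 723 in the vector-control library. At 28.6 CPM against 36.2 CPM the ratio was 0.791 (0.704 to 0.888), short of 1.5-fold. SPRED1 (ENSG00000166068, chromosome 15, 38252326 to 38357249, plus strand) was the least abundant of the 10, with 124 counts against 117, or 7.19 CPM against 5.86 CPM. Its interval ran from 0.945 to 1.59, so no difference was detectable at this depth.

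ETV4 and ETV5 are ETS factors of the PEA3 group and are among the transcription factors that rise with ERK activity. ETV4 (ENSG00000175832, chromosome 17, 43527844 to 43579620, minus strand) had 478 counts in the SNHG15-overexpressing library and 880 in the vector-control library. Its level was 27.7 CPM against 44.1 CPM, 1.59-fold lower (1.42 to 1.78). ETV5 (ENSG00000244405, chromosome 3, 186046308 to 186110318, minus strand) went the other way, with 2434 counts against 2334. At 141.1 CPM in the SNHG15-overexpressing library and 116.8 CPM in the vector-control library, its ratio was 1.21 (1.14 to 1.28), which did not reach 1.5-fold. Together the pair stood at 168.8 CPM with SNHG15 overexpression and 160.9 CPM with the vector, and the interval of that ratio, 0.997 to 1.10, included 1.

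The call of ETV4 depended on the processing. ETV4 was 1.47-fold lower when scaled by library totals, 1.35-fold lower with the trend of ratios on transcript GC content removed, and so below 1.5-fold under both. It was also short of 1.5-fold with that trend removed and centring on the 40 nearest genes, at 1.43-fold, and with FPKM at pseudocounts of 1 and 0.1, at 1.37-fold and 1.46-fold. Library totals as the scale put the median log2 ratio of all genes compared at 0.13. ETV4 also overlaps DHX8 on the opposite strand, which was higher, at 69.1 CPM in the SNHG15-overexpressing library and 50.7 CPM in the vector-control library. The sources used here do not say whether the libraries kept strand, so the reads of the overlap cannot be told apart. ETV5 overlaps DGKG on its own strand, but DGKG had only 2 counts against 0.

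PHLDA1 (ENSG00000139289, chromosome 12, 76025447 to 76033932, minus strand) encodes a pleckstrin-homology protein whose message follows ERK activity in many tumour lines. It had 2418 counts in the SNHG15-overexpressing library and 4770 in the vector-control library. The level was 140.1 CPM against 238.8 CPM, 1.70-fold lower (1.62 to 1.79). PHLDA1 overlapped no other gene of the table, and it was counted as lower under every alternative tried, by 1.53-fold to 2.0-fold. Its ratio lay at percentile 8.05 of all genes compared, and that of ETV4 at percentile 10.3, so 8.05% of all genes compared had a lower ratio than PHLDA1.

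**Figure D2:**
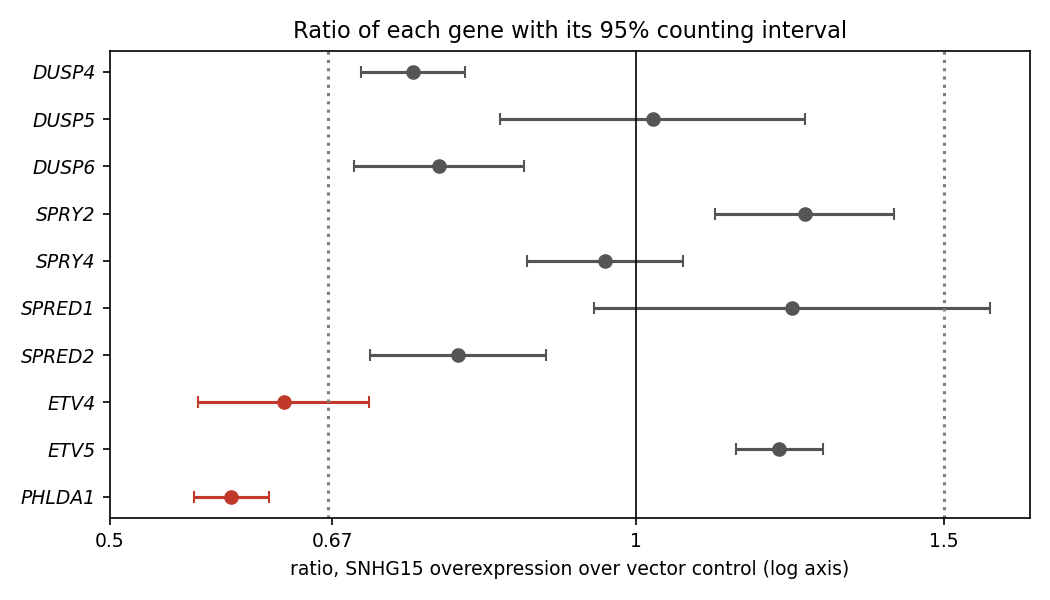
Ratio of the SNHG15 overexpression library to the vector control library for each gene (log axis), with its exact 95% counting interval. Dotted lines mark 1.5-fold in either direction and red marks the genes counted as lower, PHLDA1 and ETV4. DUSP5, SPRY4 and SPRED1 have intervals that include 1.

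Of the 10 intervals, 5 lay wholly below 1 (PHLDA1, ETV4, DUSP4, DUSP6 and SPRED2), 2 wholly above 1 (SPRY2 and ETV5), and 3 included 1. The 5 below 1 were so under every alternative that gives an interval, but the others were not fixed. With the GC trend removed and centring on the 40 nearest genes, SPRY2 (0.920 to 1.17) and ETV5 (0.967 to 1.08) included 1 and SPRY4 (0.718 to 0.883) lay below it. By library totals SPRED1 (1.02 to 1.73) lay above 1. The summed level of the 10 genes was 539.2 CPM with SNHG15 overexpression and 667 CPM with the vector, a ratio of 0.808 (0.787 to 0.830). PHLDA1 carried much of that gap, since it supplied 26.0% of the counts of the 10 genes in the SNHG15-overexpressing library and 35.8% in the vector-control library. Without PHLDA1 the sum was 399.1 CPM against 428.2 CPM, a ratio of 0.932 (0.903 to 0.962).

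Close relatives differed in their ratios. The ratio of 1 gene's ratio to another's does not depend on how the libraries are scaled, and it was computed for the 6 pairs within a family, with unadjusted exact intervals. For 5 of the 6 pairs the interval excluded 1. ETV4 relative to ETV5 was 1.92-fold lower in the SNHG15-overexpressing library (1.69 to 2.18), the widest of the 6. SPRED1 relative to SPRED2 was 1.55-fold higher (1.16 to 2.07), and SPRY2 relative to SPRY4 was 1.30-fold higher (1.11 to 1.52). DUSP5 relative to DUSP6 was 1.33-fold higher (1.05 to 1.67), and DUSP4 relative to DUSP5 stood at a ratio of 0.729 (0.590 to 0.902). DUSP4 and DUSP6 kept their proportion within counting error, with a ratio of ratios of 0.967 (0.848 to 1.10). These values do depend on a correction for GC content or surroundings, an alternative added after the data were seen. With the GC trend removed, SPRY2 relative to SPRY4 was 1.07 with an interval that included 1 (0.917 to 1.26), and ETV4 relative to ETV5 was 1.57-fold lower (1.39 to 1.79). With centring on the 40 nearest genes as well, the intervals of SPRED1 relative to SPRED2 (0.920 to 1.63) and of DUSP4 relative to DUSP5 (0.671 to 1.03) included 1. That of SPRY2 relative to SPRY4 (1.11 to 1.52) excluded 1 again, and ETV4 relative to ETV5 was 1.47-fold lower (1.29 to 1.67).

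Per length, the order of the 10 genes differed at the top between the libraries. In FPKM, the authors' unit that divides by transcript length and library size, ETV5 led the SNHG15-overexpressing library at 18.4 FPKM, followed by PHLDA1 at 14.0 FPKM and DUSP4 at 10.2 FPKM. In the vector-control library PHLDA1 led at 22.0 FPKM, with ETV5 at 14.1 FPKM and DUSP4 at 12.6 FPKM. These leading levels differed from their neighbours in the order by more than counting error in both libraries.

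The fourth gene was SPRY2 in the SNHG15-overexpressing library and ETV4 in the vector-control library. SPRY2 was at 7.54 FPKM in the SNHG15-overexpressing library and 5.57 FPKM in the vector-control library. SPRY4 stood at 4.56 FPKM against 4.38 FPKM, ETV4 at 3.99 FPKM against 5.86 FPKM, and DUSP6 at 3.91 FPKM against 4.67 FPKM. FPKM values are on another scale between libraries than the CPM values above. SPRY4 thus stood above the vector-control library in FPKM but below it in CPM, at 39.4 CPM against 41.0 CPM. SPRED2 was at 3.75 FPKM with SNHG15 overexpression and 4.38 FPKM with the vector, and DUSP5 at 3.61 FPKM against 3.26 FPKM. In the SNHG15-overexpressing library the steps from ETV4 to DUSP6, from DUSP6 to SPRED2 and from SPRED2 to DUSP5 lay within counting error. In the vector-control library this held for the steps from ETV4 to SPRY2, from DUSP6 to SPRY4 and from SPRY4 to SPRED2. SPRED1 was last in both, at 0.860 FPKM against 0.646 FPKM.

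As a description of its surroundings, each gene was set beside the median log2 ratio of its 40 nearest compared genes, which spanned 2.01 to 28.1 megabases. PHLDA1 had a log2 ratio of −0.77 where its neighbours had a median of 0.22, DUSP6 −0.37 beside 0.22, and ETV4 −0.67 beside −0.01. DUSP4 had −0.42 beside −0.01 and SPRED2 −0.34 beside 0.13. These 5 genes thus lay below the genes around them. SPRY2, at 0.32, lay beside a median of 0.36, ETV5, at 0.27, beside 0.24, and SPRED1, at 0.29, beside 0.27. The 3 genes with the highest ratios therefore stood about level with their surroundings. SPRY4, at −0.06, had neighbours at 0.46, and DUSP5, at 0.03, had neighbours at 0.20, so both of these also lay below their surroundings. The difference was −0.52 for SPRY4, wider than for SPRED2 (−0.47) and DUSP4 (−0.41).

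**Figure D3:**
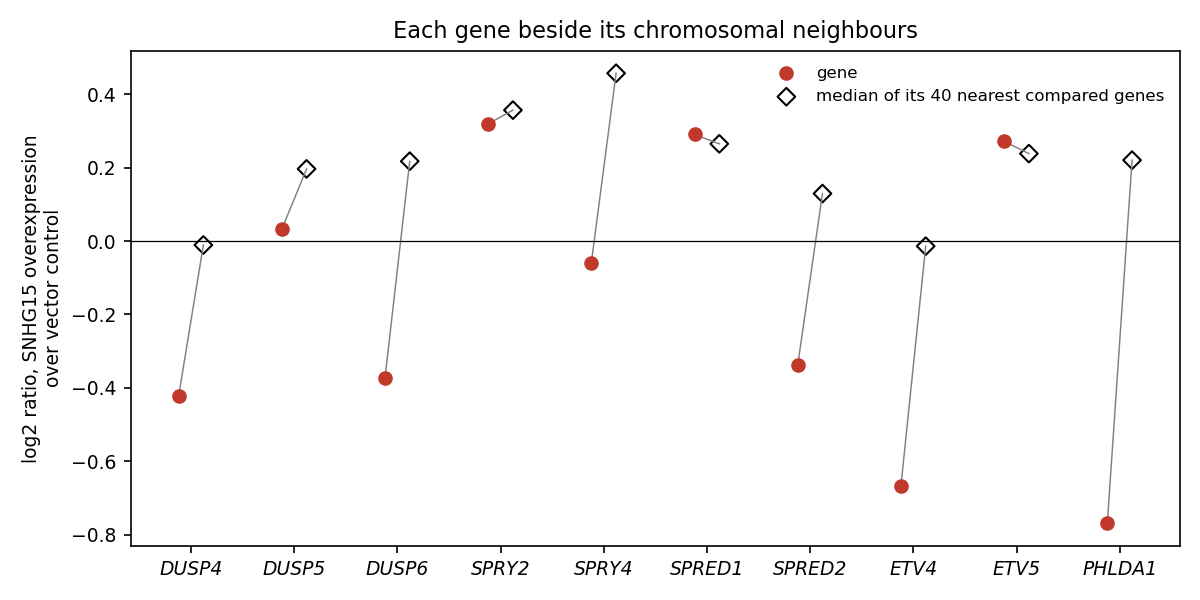
Log2 ratio of the SNHG15 overexpression library to the vector control library for each gene (red circles) and the median of its 40 nearest compared genes on the same chromosome (open diamonds). SPRY2, SPRED1 and ETV5 sit within 0.04 of their neighbours' median, and PHLDA1 lies 0.99 below it.

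The other members of the same families included genes on both sides of 1. Of 12 measured relatives, 4 were counted as higher, 2 as lower and 6 as neither, with a median log2 ratio of 0.33. Of all genes compared, 13.3% were higher and 12.2% lower, the shares to set beside this list and those below. DUSP8, a phosphatase that acts mainly on the stress kinases JNK and p38, was at 12.2 CPM in the SNHG15-overexpressing library and 5.81 CPM in the vector-control library, 2.11-fold higher (1.67 to 2.66). DUSP16, another phosphatase of JNK, was at 18.4 CPM against 9.66 CPM, 1.90-fold higher (1.58 to 2.29), and 1.48-fold with the GC trend removed and centring on neighbouring genes. The Sprouty gene SPRY1 had 57 counts against 142 and was 2.15-fold lower (1.57 to 2.98), but had a ratio of 0.802 with FPKM and a pseudocount of 1. The remaining genes of this paragraph were named after their values were seen. DUSP9 was 1.97-fold higher (1.48 to 2.64) and ETV1 1.52-fold higher (1.12 to 2.07), the nearest to 1.5-fold of the 4 higher relatives. With DESeq2 size factors, length correction or thinning of the deeper library, 3 relatives were counted as higher. PHLDA3 was 1.83-fold lower (1.53 to 2.19). DUSP1, DUSP7 and SPRED3 were counted as neither. With FPKM and a pseudocount of 1, 3 relatives were counted as higher and 0 as lower.

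Most genes of the kinase cascade itself were counted as neither, as were 9635 of all 12934 genes compared. Of 17 core genes, 2 were counted as higher, 0 as lower and 15 as neither (median log2 ratio 0.02). MAPK3, which encodes ERK1, was at 132 CPM in the SNHG15-overexpressing library and 190.5 CPM in the vector-control library, a ratio of 0.693 (0.657 to 0.730), short of 1.5-fold. HRAS had a ratio of 0.674 (0.613 to 0.740) and passed 1.5-fold only with DESeq2 size factors, at 1.53-fold lower. BRAF had 79 counts against 126 and a ratio of 0.726 (0.541 to 0.969), which was 1.56-fold lower with the GC trend removed and 1.53-fold lower with the length trend removed. The gene farthest from 1 was KSR1, a scaffold that holds RAF, MEK and ERK together, at 41.4 CPM in the SNHG15-overexpressing library and 17.6 CPM in the vector-control library, 2.35-fold higher (2.06 to 2.68).

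Among 11 other negative regulators of the pathway, 0 were higher, 1 was lower and 10 were neither (median 0.05). LZTR1, an adaptor that marks RAS proteins for degradation, was at 49.2 CPM against 81.1 CPM, 1.65-fold lower (1.52 to 1.79), but had a ratio of 0.708 with the GC trend removed, 0.861 with centring on neighbours as well, and 0.720 with FPKM and a pseudocount of 1. The RAS-inactivating DAB2IP and the ubiquitin ligase CBL had ratios of 0.890 (0.854 to 0.928) and 0.843 (0.765 to 0.929). Of 10 kinases activated by ERK and other ETS factors, 1 was higher, 0 were lower and 9 were neither (median 0.19). RPS6KA2, a ribosomal S6 kinase, had 71 counts against 44 and was 1.87-fold higher (1.26 to 2.79), but 1.13-fold with FPKM and a pseudocount of 1. The kinase gene MKNK1 had a ratio of 1.38 (1.19 to 1.59) and the ETS factor gene ETS1 a ratio of 0.724 (0.660 to 0.794).

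Genes outside these families that respond to ERK were mostly counted as neither, as were 9635 of all 12934 genes compared. Of 9 measured, 0 were higher, 1 was lower and 8 were neither (median −0.02). The lower gene was FOSL1, which encodes the AP-1 subunit FRA1, at 75.2 CPM in the SNHG15-overexpressing library and 282.6 CPM in the vector-control library, 3.76-fold lower (3.54 to 3.99). The receptor tyrosine kinase gene EPHA2, a member of published ERK signatures, was at 831.9 CPM against 791.3 CPM, a ratio of 1.05 (1.03 to 1.08). The early response gene IER3 had a ratio of 0.840 (0.801 to 0.881).

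Upstream, ligands and receptors differed in both directions. Of 12 ligands listed, 8 had a row and 5 averaged 1 CPM or more over both libraries, with 1 higher and 2 lower (median −0.22). FGF2, a broad activator of FGF receptors, was at 34.9 CPM with SNHG15 overexpression and 68.8 CPM with the vector, 1.97-fold lower (1.79 to 2.17). FGF5 was at 36.5 CPM against 21.4 CPM, 1.70-fold higher (1.5 to 1.93), and 1.21-fold with the GC trend removed and centring on neighbouring genes. AREG, an EGF receptor ligand, had 2 counts against 63, a ratio of 0.0368 (0.00436 to 0.138). At 0.116 CPM against 3.15 CPM, it reached the required mean of 1 CPM only through the vector-control library. With a minimum mean of 5 CPM, 1 ligand was counted as lower, FGF2.

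Of 11 receptors, 5 were higher, 1 was lower and 5 were neither (median 0.12), beside 13.3% higher and 12.2% lower of all genes compared. FGFR1 was at 191.7 CPM in the SNHG15-overexpressing library and 103.5 CPM in the vector-control library, 1.85-fold higher (1.75 to 1.96). FGFR3 had 46 counts against 19, 2.80-fold higher (1.61 to 5.07), and ERBB3 had 39 against 15, 3.01-fold higher (1.62 to 5.88). FGFR2 and FGFR4, named after their values were seen, were 1.72-fold (1.45 to 2.04) and 1.78-fold (1.53 to 2.07) higher. FGFR3 and ERBB3 stood at 0.951 CPM and 0.751 CPM in the vector-control library. They reached the required mean of 1 CPM only through the SNHG15-overexpressing library. With a minimum mean of 5 CPM, 3 receptor genes were counted as higher, FGFR1, FGFR2 and FGFR4. The lower receptor gene, also named after its values were seen, was PDGFRA, with 65 counts in the SNHG15-overexpressing library against 157 in the vector-control library, 2.09-fold lower (1.55 to 2.83). The call of FGFR2, FGFR3, ERBB3 and PDGFRA was lost with FPKM and a pseudocount of 1, at ratios of 1.30, 1.18, 1.08 and 0.812. EGFR was at 76.6 CPM against 87.9 CPM, a ratio of 0.871 (0.811 to 0.936). LZTR1, RPS6KA2, MKNK1, FGF5 and FGFR1 overlap another gene of the table on their own strand, so their values are uncertain. BRAF, EPHA2, IER3 and FGF2 overlap another gene on the opposite strand. Whether the libraries kept strand is not stated, so these values are uncertain too.

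**Figure D4:**
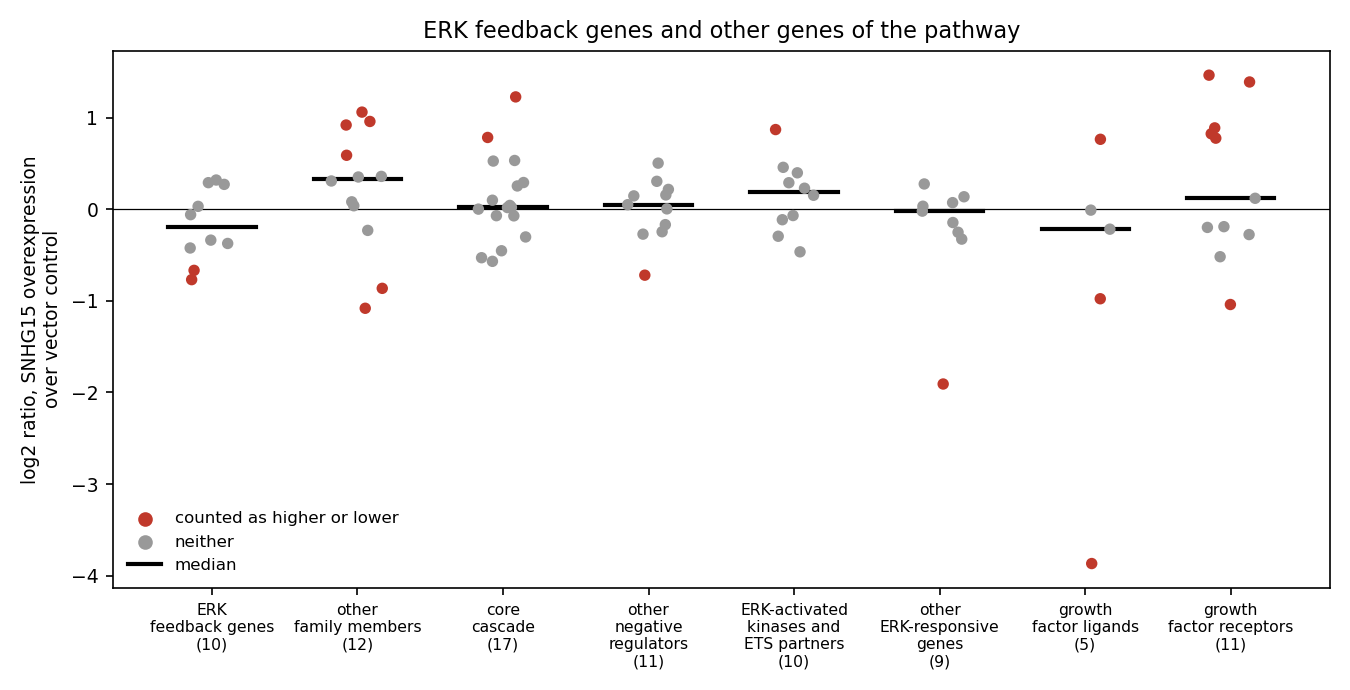
Log2 ratios of the SNHG15 overexpression library to the vector control library for the 10 ERK feedback genes and 7 lists of other pathway genes, with the number measured in brackets. Each point is a gene, red where it was counted as higher or lower, and bars are medians. The feedback genes lie between −0.77 and 0.32.

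In the authors' deposited table none of the 10 genes was marked as up or down. The authors' deposited table gives PHLDA1 a log2 ratio of −0.65 and an adjusted p of 0.00329 from edgeR, and ETV4 a log2 ratio of −0.55 and an adjusted p of 0.0220 from edgeR. The other 8 had adjusted p-values between 0.177 and 1.0 in the authors' deposited table. These p-values match an exact test in edgeR at an assumed coefficient of variation of 0.1, an assumption that a single library per group cannot check.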

How the data were processed

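RNA of 2 BT549 libraries, SNHG15 overexpression and vector control, was sequenced by the submitters. The authors deposited raw counts per gene, FPKM values, log2 ratios of FPKM, and p-values with adjusted p-values. The submitters' processing notes name hg38 as the build; the aligner, counter, annotation release and strandedness are not stated in the sources used here. The table's name, given by the authors, names edgeR, and the deposited p-values matched an edgeR exact test with a coefficient of variation set to 0.1 (log10 p differed by at most 4.03e-13 over 19029 genes). The deposited subsets of called genes hold no further values and were left out.

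Counts were scaled with TMM factors (edgeR 4.0.16, R 4.3.3; 1.04 for the SNHG15-overexpressing library and 0.960 for the vector-control library). Ratios carry exact conditional-binomial (Clopper-Pearson) 95% intervals, ratios of ratios exact conditional intervals (SciPy 1.17.1). The median compared gene had 284 counts in the SNHG15-overexpressing library and 315 in the vector-control library. Reads are not independent molecules. Log2 ratios used a prior count of 2. GC and length trends (GENCODE 29, 18903 identifiers matched; GC for 99.7% of genes compared) were removed by lowess with a span of 0.5. DESeq2 1.42.0 gave alternative size factors. The functions were tested on simulated data.

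The 10 genes and the related lists were chosen with earlier results of these data known. Of 84 related genes, 4 had no row and are not analysed here. All 10 genes were named, with up to 3 genes per related list farthest from 1 by the nearest interval bound, and a few fixed genes, among them EGFR, MAPK3, BRAF and SNHG15; some of these fixed genes are not reported here. A single ratio per gene measures no likeness of pattern, so none is named for it.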

Additional observations from a re-analysis of the deposited data

How the results depend on the processing

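No paired analysis was possible because each group held 1 library. The 2 genes counted as lower became 1, PHLDA1, by library totals, with the GC trend removed, with that trend removed and centring on 40 neighbouring genes, and with FPKM and a pseudocount of 1 or 0.1. ETV4 was then 1.35-fold to 1.47-fold lower. Under these alternatives, and with DESeq2 size factors, other filters, length correction, thinning of the deeper library and removal of same-strand overlaps (added after the data were seen), 0 genes of the 10 were higher. None was beyond 2-fold under those alternatives for which that rule was run. The median log2 ratio of the 10 ranged from −0.28 to −0.07. Their summed ratio was 0.786 with DESeq2 size factors, 0.877 by library totals, 0.744 with centring on neighbours, and 0.925 and 0.916 with FPKM and pseudocounts of 1 and 0.1. With FPKM and a pseudocount of 1, 765 of all genes were higher and 592 lower, and of the related genes 7 were higher and 3 lower, against 13 and 7. With a minimum of 5 CPM, 1023 of all genes and 8 related genes were higher. The lower calls of all genes were 1574, and the higher calls 1725, which became 1151 and 2380 by library totals. Why these values moved was not tested. The depth of SPRED1 and DUSP5, at 117 to 214 counts, limits their intervals most.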

Other observations

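The deposited annotation marks 243 genes as MAP kinase signalling, a set taken up after the data were seen. Outside the 10 feedback genes and the related lists, 157 of them were measured, with 18 higher, 22 lower and 117 neither, a called share of 25.5% beside 25.5% of all genes compared. The genes farthest from 1 by the nearest interval bound included MAPK12, which encodes p38 gamma, with 532 counts in the SNHG15-overexpressing library against 1903 in the vector-control library, 3.09-fold lower (2.81 to 3.41). MAPK12 overlaps HDAC10, also on the minus strand, and its value is uncertain. RRAS, a RAS-related GTPase, was 2.25-fold lower (2.13 to 2.39), at 1578 counts against 4116. MAPK11, which encodes p38 beta, was 2.04-fold lower (1.79 to 2.33), but was named out of the order of the bounds. By that bound the lower genes TEK, IL1B and CD14 and the higher genes IL1RAP, TGFB3 and PPM1A lay farther from 1 than MAPK11. On the higher side, STK4, the Hippo kinase MST1, had 531 counts against 254 and was 2.42-fold higher (2.08 to 2.82), and the stress gene GADD45B was 2.44-fold higher (2.03 to 2.93).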
